A study of Oryza sativa with 12 samples.

Results

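The 100 most abundant transcripts of rice spikelets at flowering were examined across 2 cultivars and 2 temperatures. For each of the 57174 genes listed, the read count was divided by the gene counts of its library and expressed as counts per 1000000 (CPM), and the 100 genes with the highest mean of the 4 group means were taken. These values chose the genes, so their levels and their share of the libraries are descriptions and carry no test. Spikelets from the middle of the panicle of flooded rice (Oryza sativa) were frozen at anthesis, when the flowers open and shed pollen, after 3 days with 7 h each at either 29 °C (control libraries) or 38 °C (heat libraries). The cultivars were IRGA 428, labelled as sensitive to heat, and BR-IRGA 409, labelled as tolerant. Each of the 4 groups had 3 libraries, and each library was made from 2 plants. As each label of sensitivity rests on 1 cultivar, sensitivity and other differences between the cultivars cannot be told apart. The names of the BR-IRGA 409 files alone carry the word new, whose meaning is not given in the sources used here, and whatever it marks cannot be told apart from cultivar either.

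A spikelet at anthesis holds the green lemma and palea, the stamens with ripe pollen, and the pistil, so its RNA is a mixture of leaf-like and reproductive tissues. In plant tissues a small set of genes usually supplies a large part of the messenger RNA, and the level of such genes sets how much sequence is left for all others. Heat at anthesis is known in rice for harming anther opening, pollination and grain set. The files pair the gene IDs, which begin with MH, with no names, and 0 of the 57174 IDs were found in the table of named rice genes at hand, so roles are not given and the tissue label was not checked against marker genes. Gene lengths were not used, so the order of the genes is an order of reads and not of RNA molecules. In bulk RNA, fewer cells of a type and less RNA per cell cannot be told apart.

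Mean levels of the 100 genes ran from 728 to 9198 CPM, with a median of 1185 CPM. At least 1000 CPM was reached by 74 of them, at least 2000 CPM by 22 and at least 5000 CPM by 4. The edge of the set was narrow. MH02g0524400, at rank 100, had a mean of 728.4 CPM, and MH12g0427600, the next gene and outside the set, had 726.1 CPM. Choosing the genes again without any 1 of the 12 libraries kept 97 to 100 of them, the 6 IRGA 428 libraries alone shared 97 of their own 100 highest genes with the set, and the 6 BR-IRGA 409 libraries alone shared 95. As these lists reuse libraries that chose the set, high overlap was favoured in advance.

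Libraries differed in depth and in likeness before any comparison was made. Gene counts per library ran from 7.08 to 75.4 M (M, 1000000 counts), and within each cultivar the heat libraries had more counts than any control library. Depth was not limiting for these genes: the lowest count of any of them in any library was 549, for which the counting error, as a coefficient of variation (CV), is 4.27%. With all libraries thinned to the depth of the smallest, the 5 tests below called 0, 6, 0, 1 and 2 of the 100 genes, as many as with all counts. The share of all tested genes did fall. It was 0%, 8.43%, 0%, 3.37% and 4.78% with thinning, against 0%, 11.9%, 0.00448%, 4.05% and 6.53% with all counts. Within IRGA 428, 1 pair of libraries crossed the labels. Control 3 and heat 1 were the closest pair of all 66, with a median absolute log2 difference of 0.09 over the 100 genes and 0 genes over 2-fold apart. Control 1 and control 2 were 0.17 apart, heat 2 and heat 3 were 0.11 apart, and control 3 lay 0.65 from control 1 and 0.63 from control 2. Within BR-IRGA 409, pairs of the same temperature were 0.13 to 0.30 apart and pairs of different temperature 0.25 to 0.47. Results in IRGA 428 are therefore given with and without control 3.

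In all libraries the 100 genes held between 14.3% and 18.1% of the gene counts. The share was 14.3%, 14.7% and 16.8% in the IRGA 428 control libraries 1, 2 and 3, and 17.3%, 17.1% and 17.9% in the heat libraries. All 3 heat libraries were above all 3 control libraries, and control 3 was closest to them. Group means were 15.3% ± 1.36 (SD, n = 3) in control and 17.4% ± 0.405 (SD, n = 3) in heat libraries, which is 2.17 percentage points more with heat. This difference was 1.67 points without control 1 and 2.94 points without control 3. In BR-IRGA 409 the shares were 16.7%, 16.997% and 17.9% in control libraries and 16.6%, 16.9% and 18.1% in heat libraries, with full overlap and means of 17.2% ± 0.592 and 17.2% ± 0.811. Their difference was 0.0154 points, well below the spread between libraries. Relative to library sizes scaled by trimmed mean of M-values (TMM), which follow the typical gene instead of all reads, the difference in BR-IRGA 409 was 1.10 points and that in IRGA 428 2.94 points. At 29 °C the share was 1.93 points higher in BR-IRGA 409 than in IRGA 428, and control 3 of IRGA 428 (16.8%) overlapped the BR-IRGA 409 libraries. At 38 °C the difference was −0.233 points, with overlap, and 0.711 points relative to TMM-scaled sizes.

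**Figure D1:**
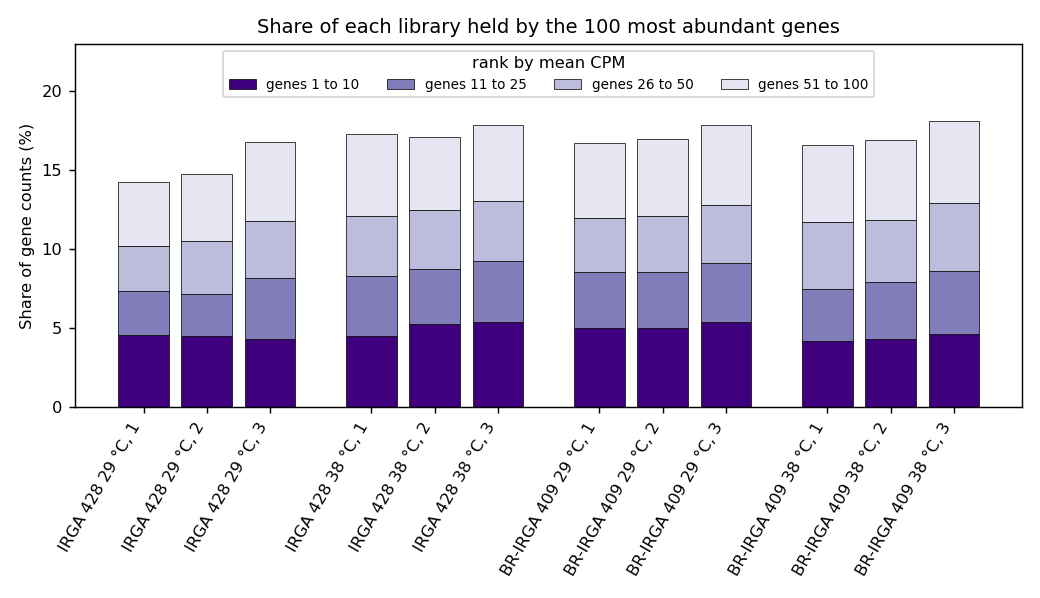
Share of gene counts (%) held by the 100 most abundant genes in each of the 12 libraries, stacked by rank class (1 to 10, 11 to 25, 26 to 50, 51 to 100). The bars of IRGA 428 at 29 °C reach 14.3%, 14.7% and 16.8%, and the other 9 bars reach 16.6% to 18.1%.

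A single gene never took much more than 1% of a library. The highest gene of each library held 0.699% to 1.12% of its gene counts, the first 10 genes 4.18% to 5.40%, and the first 50 genes 10.2% to 13.1%. Going down the whole list, 1292 to 1633 genes were needed to reach 50% of the counts and 8722 to 9320 genes to reach 90%. In BR-IRGA 409 gains and losses of single genes nearly cancelled. There, 59 genes had a higher mean CPM at 38 °C and together added 2.07 points, and 41 had a lower mean and together came to −2.051 points. The first 10 genes came to −0.770 points in sum and the other 90 to 0.785 points. In IRGA 428, 67 genes added 2.93 points at 38 °C and 33 came to −0.758 points, and the first 10 genes were 0.577 points higher in sum.

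The 5 genes with the highest means were also the 5 highest genes in 6 of the 12 libraries. MH02g0022600, at rank 1, was the highest gene in 11 of 12 libraries and ranked 3 in the other one, BR-IRGA 409 heat 3. It had 9653, 10799 and 9209 CPM in the control and 8986, 11152 and 11135 CPM in the heat libraries of IRGA 428. In BR-IRGA 409 it had 9315, 9745 and 10054 CPM in control and 6990, 7374 and 5969 CPM in heat libraries. These 3 heat libraries were the lowest of the 12 and did not overlap any group, with a log2 fold change of −0.43 in BR-IRGA 409 (SE 0.17, edgeR adjusted p = 0.11) that did not pass the test described below. Its own difference was −0.293 points, within the sum of the 41 lower genes.

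MH05g0018300, at rank 2, ran from 4466 to 7673 CPM and ranked 2 to 4 in each library. MH01g0461100, at rank 3, had 3026, 2988 and 4855 CPM in IRGA 428 control libraries and 5652, 5243 and 6345 CPM in heat libraries. Its range in BR-IRGA 409 was 5499 to 8107 CPM, and it was the highest gene of heat 3. Among the 100 genes it had the largest gain in IRGA 428, 0.212 points, without overlap between the temperatures and without passing the test (log2 fold change 0.73, SE 0.26, edgeR adjusted p = 0.401). MH09g0250600, at rank 4, also lay higher in all IRGA 428 heat libraries, at 6286, 6290 and 6628 CPM against 4117, 4028 and 5570 CPM, and did not pass (edgeR adjusted p = 0.411).

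MH07g0397700, at rank 5, set the IRGA 428 libraries apart across the labels. It had 6536 and 5811 CPM in control 1 and 2 but 1303 CPM in control 3, and 1389 CPM in heat 1 but 5098 and 5286 CPM in heat 2 and 3. In BR-IRGA 409 it had 6123, 8036 and 5897 CPM in control and 2301, 3708 and 3718 CPM in heat libraries, which did not overlap. Its mean in BR-IRGA 409 differed by −0.344 points at 38 °C, the largest loss among the 100 genes, but its spread left it short of a call (log2 fold change −0.96, SE 0.56, edgeR adjusted p = 0.272).

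**Figure D2:**
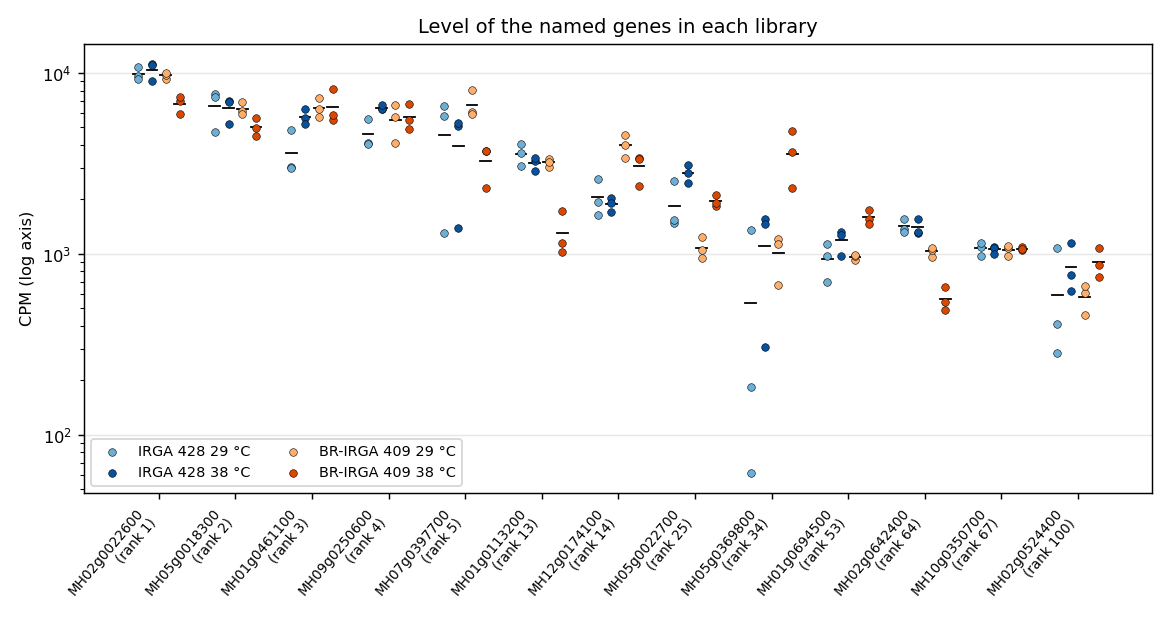
CPM (log axis) of the 13 named genes of the set in each library, with 3 points and a mean line per group. MH10g0350700 stays between 973 and 1146 CPM, whereas MH05g0369800 runs from 61.8 to 4764 CPM and MH01g0113200 is at 1730 CPM or lower in the heat libraries of BR-IRGA 409 and at 2888 CPM or higher in the other 9.

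Stability varied widely among the 100 genes. The CV of CPM over the 12 libraries had a median of 24.9% and ran from 5.15% to 90.9%. Over all genes tested below, the median CV was 23.3%. The ratio of the highest to the lowest library had a median of 2.32, was above 2 for 61 genes, above 4 for 14 and above 10 for 1. MH10g0350700, at rank 67, was the steadiest. It had 1096, 975 and 1146 CPM in IRGA 428 control and 1098, 1085 and 1001 CPM in heat libraries, and 1078, 973 and 1113 CPM in BR-IRGA 409 control and 1092, 1050 and 1063 CPM in heat libraries. All 4 groups overlapped, and its highest library was 1.18 times its lowest.

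The gene at the other end was MH05g0369800, at rank 34. IRGA 428 had 61.8, 1362 and 184 CPM in control and 306, 1563 and 1457 CPM in heat libraries. BR-IRGA 409 had 673, 1217 and 1135 CPM in control and 4764, 2303 and 3647 CPM in heat libraries. The heat libraries of BR-IRGA 409 were above all other libraries, and control 1, control 3 and heat 1 of IRGA 428 were below all others. It ranked 5 in 1 library and 3855 in another, and it was the only one of the 100 genes outside the 1000 highest genes of any library. Its mean log2 fold change of 1.92 in BR-IRGA 409 had an SE of 0.95 and did not pass (edgeR adjusted p = 0.192).

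The spread between libraries of the same group was far above the counting error, whose median over the 100 genes was 0.388% to 0.928% by group. Over the 100 genes, the median CV within a group was 30.1% in IRGA 428 control libraries, 11.3% in IRGA 428 heat libraries, 12.2% in BR-IRGA 409 control libraries and 14.4% in BR-IRGA 409 heat libraries. A CV above 50% was found for 20 genes in IRGA 428 control libraries and for 3, 1 and 0 genes in the other groups, in the same order. Control 1 of IRGA 428 was the lowest library for 42 of the 100 genes. There, 22 genes were at least 2-fold below their own median over the 12 libraries, against 8.31% of all tested genes with a median of at least 1 CPM. For control 2 this count was 7, all of them among the 22, against 2.23% of all tested genes by the same rule. For each of the other 10 libraries it was 0 to 4, against 1.91% to 4.92%. The 22 genes had a median of 0.332 times their own median in control 1, of 0.656 times in control 2 and of 1.02 times in control 3. Their median ratio was 1.20, 0.945 and 1.06 in the IRGA 428 heat libraries. In BR-IRGA 409, the median ratio of these genes was 0.850, 0.899 and 0.987 in control and 1.24, 1.07 and 1.11 in heat libraries. They were picked by their low values, so these ratios carry no test.

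Membership was firm at the top and loose at the bottom, which a ranking by the mean of these same libraries favours in advance. Of the 100 genes, 52 were among the 100 highest genes of all 12 libraries, 41 of them within the first 50 ranks and 11 from rank 51 down. All of the first 10 were among them. Single libraries shared 74 to 92 of their own 100 highest genes with the set, with the fewest in IRGA 428 control 1 (74), control 2 (81) and BR-IRGA 409 heat 1 (81). Another 72 genes entered the 100 highest of at least 1 library, 26 of them in 1 library only and 2 of them in 6 or more. MH02g0524400, the last gene of the set, was among the 100 highest in 4 libraries, with 284, 408 and 1084 CPM in IRGA 428 control libraries.

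**Figure D3:**
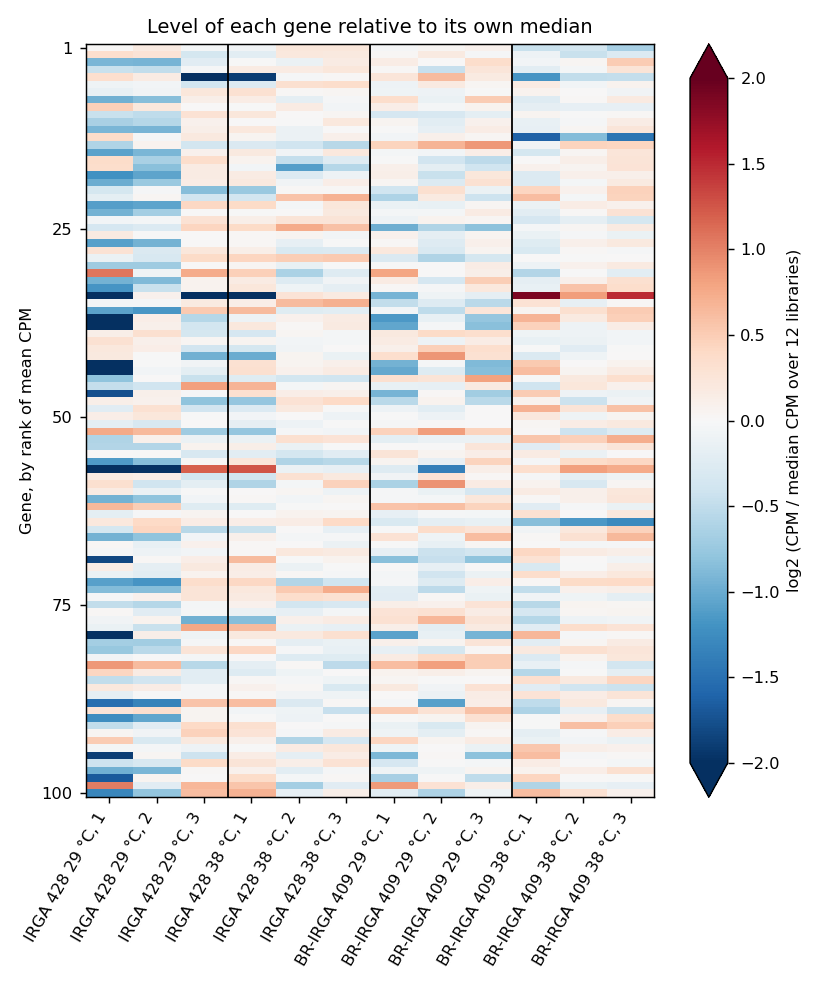
Level of each of the 100 genes (rows, by rank) in each library (columns) as log2 of CPM over the gene's own median of 12 libraries; blue is below and red above the median, and colours end at 2 either way. Control 1 of IRGA 428 has 22 genes at least 2-fold below their median, and control 3 and heat 1 of IRGA 428 show nearly the same column, with a median difference of 0.09.

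Changes with heat were tested with edgeR's quasi-likelihood test on the counts of all 22321 genes that passed a filter on low counts, which all 100 passed, with TMM scaling and Benjamini-Hochberg adjustment over all genes tested. A gene was called at an adjusted p below 0.05, and each fold change is given as a log2 value with its standard error (SE). In BR-IRGA 409, 6 of the 100 genes were called, 3 higher and 3 lower at 38 °C, against 11.9% of all genes tested (6.72% higher and 5.13% lower). The count among the 100 was below that background in this fit, but not in all other runs. With limma-voom it was 6, against 9.48% of all genes. In BR-IRGA 409 alone with the replicate number as a block, it was 11, against 12%. Without the filter it was 6, against 4.53%, and without control 3 and heat 1 of IRGA 428 it was 24, against 20.5%. At an unadjusted p below 0.05 there were 22 of the 100 genes, against 31.4% of all genes. Heat and control libraries did not overlap in CPM for 47 of the 100 genes, 24 higher and 23 lower, against 45.1% of all genes (18.4% higher and 26.7% lower). The 100 log2 fold changes had a median of 0.14, against −0.0046 over all genes, and 67 were positive, against 49.1% of all genes. With library size alone as the scaling, the median was 0.05, against −0.093 over all genes, and 59 were positive. At least a 2-fold change was estimated for 6 of the 100 genes, against 14.1% of all genes.

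Of the 3 genes called higher, MH05g0022700 and MH01g0694500 had the largest fold changes. MH05g0022700, at rank 25, had 951, 1235 and 1058 CPM in control and 1829, 1919 and 2130 CPM in heat libraries of BR-IRGA 409 (log2 fold change 0.95, SE 0.24, edgeR adjusted p = 0.0338). All heat libraries lay above all control libraries. In IRGA 428 it had 1481, 1544 and 2527 CPM in control and 2451, 3118 and 2806 CPM in heat libraries, where only control 3 reached into the heat range (log2 fold change 0.65, SE 0.24, edgeR adjusted p = 0.401). MH01g0694500, at rank 53, had 920.5, 975 and 980 CPM in control and 1561, 1469 and 1754 CPM in heat libraries of BR-IRGA 409, again without overlap (log2 fold change 0.82, SE 0.21, edgeR adjusted p = 0.0334). In IRGA 428 its values were 697, 1139 and 978 CPM against 977, 1320 and 1279 CPM, with overlap. The remaining gene called higher was at rank 68, with a log2 fold change of 0.65 (SE 0.14, edgeR adjusted p = 0.0243).

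Of the 3 genes called lower, MH01g0113200, at rank 13, had the largest fold change. It had 3033, 3354 and 3221 CPM in control and 1028, 1730 and 1144 CPM in heat libraries of BR-IRGA 409 (log2 fold change −1.22, SE 0.20, edgeR adjusted p = 0.0141). In the libraries of BR-IRGA 409 its rank went from between 8 and 13 at 29 °C to between 34 and 81 at 38 °C. In IRGA 428 it had 4035, 3057 and 3607 CPM in control and 3260, 2888 and 3370 CPM in heat libraries, which overlapped (log2 fold change −0.09, SE 0.19, edgeR adjusted p = 0.86). MH02g0642400, at rank 64, had 963, 1054 and 1078 CPM in control and 660, 541 and 493 CPM in heat libraries of BR-IRGA 409, without overlap (log2 fold change −0.78, SE 0.16, edgeR adjusted p = 0.0213). Its IRGA 428 values of 1378, 1569 and 1326 CPM in control and 1310, 1327 and 1567 CPM in heat libraries overlapped (log2 fold change 0.06, SE 0.16, edgeR adjusted p = 0.892). Last of the genes called lower was one at rank 89, with a log2 fold change of −0.78 (SE 0.16, edgeR adjusted p = 0.0222).

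The 6 calls sat close to the threshold. Leaving out control 1, 2 or 3 or heat 1 or 3 of BR-IRGA 409 left 0 of the 100 genes called. The smallest edgeR adjusted p-values of the 100 were then 0.0557, 0.0509, 0.0678, 0.0506 and 0.0628. In the same runs 0.207%, 0.673%, 0.0791%, 0.291% and 0.18% of all genes were called, so calls were lost over the whole list. Leaving out heat 2 left 6 of the 100, against 7.48% of all genes. DESeq2 called 16 of the 100 genes, against 19.5% of all genes it tested, and a fit of only the 6 BR-IRGA 409 libraries called 20, against 22.3%. Without control 3 of IRGA 428, which is in the estimate of the spread, 15 genes were called, against 17.6%, and without control 1 of IRGA 428 13, against 17.8%.

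In IRGA 428, 0 of the 100 genes and 0% of all genes were called by edgeR between the temperatures, and DESeq2 also called 0 of the 100, against 0.0514% of the genes it tested. At least a 2-fold change was estimated for 1 of them, against 6.59% of all genes. At an unadjusted p below 0.05 there were 10 of the 100 genes, against 11.7% of all genes. The temperatures did not overlap for 12 genes, 11 higher and 1 lower at 38 °C, against 4.05% higher and 8.23% lower among all genes. The median log2 fold change of the 100 was 0.26, against −0.0034 over all genes, and 76 were positive, against 49.3%. With library size alone as the scaling, these were 0.18 and 67 genes, and the median over all genes was also lower, at −0.081. The count of 0 depended on control 3, the library close to heat 1. Control 3 was singled out by its likeness to a heat library in these same genes, so leaving it out favours calls. The counts without control 3 are therefore descriptions. Without control 3, edgeR called 32 of the 100 genes, 30 higher and 2 lower at 38 °C, against 6.68% of all genes. Among the next 100 genes by rank it then called 15. The 30 higher genes had log2 fold changes of 0.53 to 2.60 with a median of 1.01. Of these, 28 had positive values in BR-IRGA 409, as had 67 of all 100 genes. With all libraries, 63 of the 76 genes positive in IRGA 428 were positive in BR-IRGA 409. Of the 30, 10 were among the 22 genes that were low in control 1. Without control 3 and heat 1, 26 genes were called, 25 higher and 1 lower, against 5.41% of all genes. Without heat 1 alone, 0 of the 100 genes and 0% of all genes were called (smallest edgeR adjusted p of the 100, 0.207). Without control 1, 0 of the 100 and 0% of all genes were called (smallest edgeR adjusted p of the 100, 0.947).

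Side by side, the heat responses of the 100 genes had the same sign in both cultivars for 83 genes, 63 positive and 20 negative, against 75.5% of all genes tested. The cultivars share no library here. Across the 100 genes Pearson's r between the log2 fold changes was 0.68 and Spearman's rho was 0.64, beside 0.69 and 0.68 over all genes. These are descriptions across genes, which share their libraries and are not replicates. Whether the responses differed between the cultivars was tested by the interaction, and 0 of the 100 genes were called by edgeR, against 0.00448% of all genes, with 3 at an unadjusted p below 0.05, against 5.54%. DESeq2 called 2, both with a lower response in BR-IRGA 409, against 0.18% of the genes it tested. Without control 1 of IRGA 428 edgeR again called 0 of the 100, against 0.00882%. The responses were estimated to differ at least 2-fold for 1 of the 100 genes, against 7.78% of all genes. This was MH01g0113200, whose log2 response in BR-IRGA 409 minus that in IRGA 428 was −1.13 (SE 0.28, unadjusted p = 0.00172 and adjusted p = 0.709 in edgeR), with all BR-IRGA 409 heat libraries below all of its control libraries and overlap in IRGA 428.

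**Figure D4:**
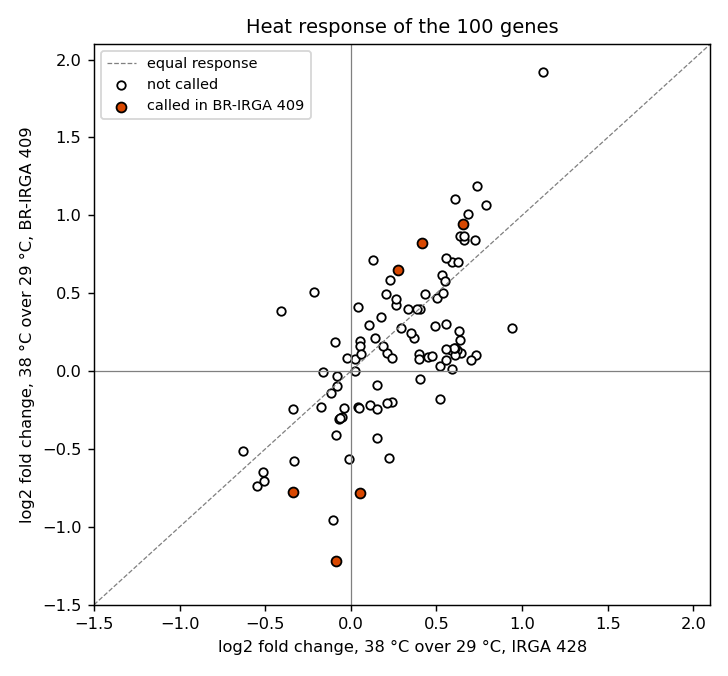
Log2 fold change at 38 °C over 29 °C of the 100 genes in IRGA 428 (x axis) and BR-IRGA 409 (y axis); filled points are the 6 genes called by edgeR in BR-IRGA 409, and the dashed line marks an equal response. The signs match for 83 genes, and 3 called genes lie below 0 on the y axis, with IRGA 428 values of 0.06 or lower.

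Few of the 100 genes were called between the cultivars, which with 3 libraries a group does not show that few differed. The median absolute log2 difference of the 100 genes was 0.27 at 29 °C, against 0.18 over all genes. At 38 °C it was 0.19, against 0.23. At 29 °C, 1 gene was called, higher in BR-IRGA 409, against 4.05% of all genes (1.9% higher and 2.15% lower). MH12g0174100, at rank 14, had 1650, 2608 and 1936 CPM in IRGA 428 and 3390, 3982 and 4558 CPM in BR-IRGA 409, without overlap (log2 difference 1.01, SE 0.22, edgeR adjusted p = 0.0248). At 38 °C its values were 2033, 1901 and 1700 CPM against 2384, 3381 and 3367 CPM, also without overlap (log2 difference 0.77, SE 0.22, edgeR adjusted p = 0.0657). Replicates with the same number deviated together at 29 °C. A fit of these 6 libraries with the number as a block called 0 of the 100 genes, against 1.75% of all genes (MH12g0174100, log2 difference 1.02, edgeR adjusted p = 0.133). The fit of the 6 libraries without the block also called 0, against 2.28% (MH12g0174100, edgeR adjusted p = 0.156). The call was also lost without control 1 (edgeR adjusted p = 0.0792) or control 3 (0.0577) of IRGA 428 and control 2 (0.0865) or 3 (0.128) of BR-IRGA 409.

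The 2 cultivars did not overlap at 29 °C for 16 genes, 12 higher and 4 lower in BR-IRGA 409, against 5.65% and 10.9% of all genes. The median log2 difference of the 100 genes was 0.14, against −0.02 over all genes, and 66 were positive, against 46% of all genes. With library size alone as the scaling 54 were positive, and the median was 0.07, against −0.089 over all genes. At least a 2-fold difference was estimated for 1, against 7.46%. Unadjusted p-values were below 0.05 for 18 genes, against 12.7%, and DESeq2 called 6, against 4.96% of the genes it tested. MH01g0461100 was among the 12, with the 3 BR-IRGA 409 libraries at 6295, 5728 and 7261 CPM above the highest IRGA 428 control at 4855 CPM (log2 difference 0.88, SE 0.26, edgeR adjusted p = 0.106). Without control 3 of IRGA 428, 21 genes were called at 29 °C, all higher in BR-IRGA 409, against 4.45% of all genes, and without control 3 and heat 1 24 genes, against 4.74%. As control 3 was singled out by its levels in these same genes, such counts are descriptions. Without control 1 the count was 0, against 3.66% of all genes.

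At 38 °C, 2 of the 100 genes were called, both lower in BR-IRGA 409, against 6.53% of all genes (3.1% higher and 3.43% lower). The called genes were MH02g0642400 (log2 difference −1.23, SE 0.16, edgeR adjusted p = 0.000565) and MH01g0113200 (log2 difference −1.22, SE 0.20, edgeR adjusted p = 0.00265), whose values in each library stand above. This comparison shares the BR-IRGA 409 heat libraries with the heat comparison that also called both genes. At 29 °C the values of MH02g0642400 were also lower in all BR-IRGA 409 libraries (log2 difference −0.40, SE 0.16, edgeR adjusted p = 0.285), while those of MH01g0113200 overlapped (log2 difference −0.09). The cultivars did not overlap at 38 °C for 23 genes, 13 higher and 10 lower in BR-IRGA 409, against 13.2% and 20.3% of all genes. Unadjusted p-values were below 0.05 for 12 genes, against 20.1%. The log2 difference was positive for 66 genes, against 49.7% of all genes, and at least 2-fold for 3, against 9.21%. With library size alone as the scaling 58 were positive, and the median was 0.04, against −0.078 over all genes. DESeq2 called 9 genes, 5 higher and 4 lower, against 9.12% of the genes it tested. Without control 3 of IRGA 428, which enters only the estimate of the spread here, edgeR called 5 genes, against 8.40%.

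Genes of lower abundance were set beside the 100 as a description. Calls for heat in BR-IRGA 409 were 6% among the 100 genes, 14% among the next 100, and 10% to 13.5% in each class from rank 201 to 10000, differences that were not tested. The median CV within groups was 16.9% for the 100 genes, 15.5% for the next 100, 11.0% for ranks 2001 to 5000 and 23.1% below rank 10000. Over all tested genes it was 16.6%. The median absolute log2 fold change in BR-IRGA 409 was 0.29 for the 100 genes, 0.37 for the next 100 and 0.30 over all genes. In IRGA 428 it was 0.36, 0.25 and 0.21, in the same order.

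**Figure D5:**
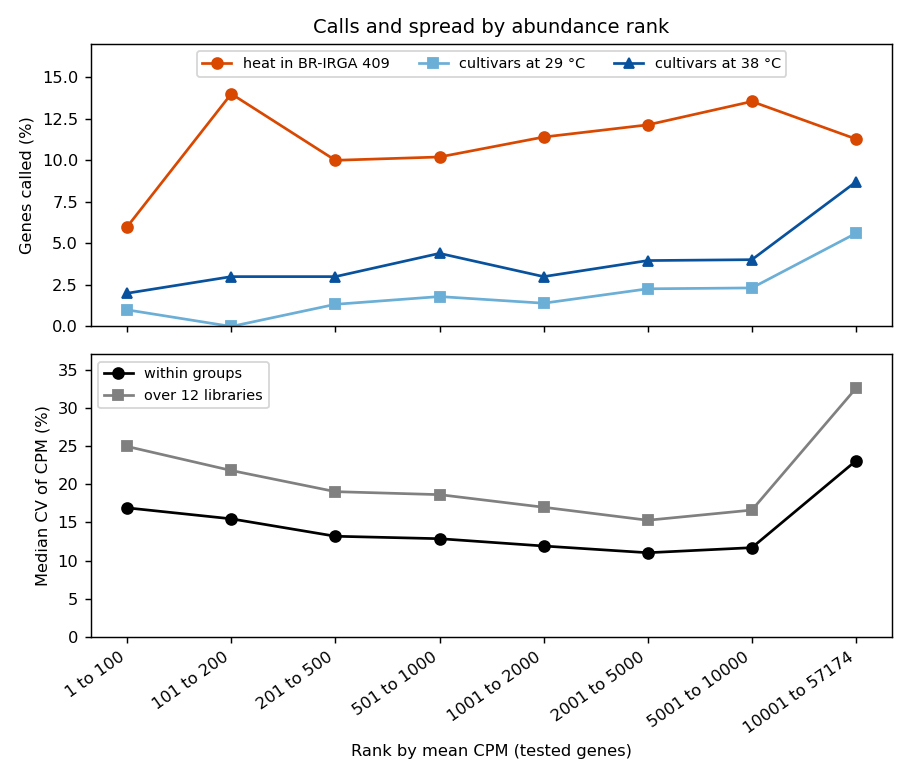
Percent of tested genes called by edgeR for heat in BR-IRGA 409 and for the cultivars at each temperature (upper panel) and median CV of CPM within groups and over 12 libraries (lower panel), by class of rank in mean CPM. The 100 highest genes have 6%, 1% and 2% of calls. Their median CV within groups is 16.9%, against 11.0% at ranks 2001 to 5000 and 16.6% over all tested genes.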

How the data were processed

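Messenger RNA was sequenced from 12 spikelet libraries, 3 in each of 4 groups, grouped by the sample titles. The authors deposited a raw read count for each gene in a file per library. The tools named for the authors' work, per the submitters' processing notes, are Trimmomatic 0.33, HISAT2 2.05 and HTSeq 0.6.1, with settings, genome build and strand handling not given in the sources used here. Closing lines that name no gene were left out of totals and tests, and 75.0% to 80.1% of reads were in genes. The closing lines include reads with several alignments, so genes with near-identical copies are uncertain.

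Counts were tested with edgeR 4.0.16 in R 4.3.3 (filterByExpr, TMM, 1 mean per group over 12 libraries, 8 residual degrees of freedom, robust quasi-likelihood test, adjusted p below 0.05 over 22321 genes). SE is the absolute log2 value over the square root of F. Other runs used DESeq2 1.42.0 and limma-voom (limma 3.58.1) or changed scalings, filters, thresholds, lists, thinning to 7078796 counts, left-out libraries and replicate blocks. At 29 °C same-numbered libraries of the cultivars correlated in their deviations from group means (0.18 to 0.31), a pairing found in the data and not stated in the labels.

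The genes and lists were chosen with earlier results of these data known. IDs are named by a fixed rule: the 5 highest, up to 2 called higher and 2 lower per comparison without overlap, the extremes of CV, ranks 100 and 101, and genes outside the 1000 highest of a library.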

Additional observations from a re-analysis of the deposited data

How the results depend on the processing

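Among the 100 genes, counts of calls are given for heat in IRGA 428 (0), heat in BR-IRGA 409 (6), the interaction (0) and the cultivars at 29 °C (1) and 38 °C (2). DESeq2 called 16, 2, 6 and 9 for the last 4, against 19.5%, 0.18%, 4.96% and 9.12% of the genes it tested. For the cultivars at 29 °C limma-voom called 3, against 3.8%. Leaving out 1 library gave 0 to 32, 0 to 15, 0 to 0, 0 to 21 and 2 to 5 calls. The shares of all genes ran from 0% to 6.68%, 0.0791% to 17.8%, 0% to 0.00882%, 2.74% to 4.45% and 4.07% to 8.4%. Leaving out IRGA 428 control 3 and heat 1 gave 26, 24, 24 and 6 for all but the interaction. The shares of all genes were then 5.41%, 20.5%, 4.74% and 7.78%. With only the groups compared there were 20 for heat in BR-IRGA 409 (22.3% of all genes) and 0 for the cultivars at 29 °C (2.28%). The replicate number as a block in such fits gave 11 for heat in BR-IRGA 409, against 12% of all genes. For the cultivars it gave 0 at each temperature, against 1.75% at 29 °C and 2.15% at 38 °C. As a block over 12 libraries it gave 2 at 29 °C, against 3.53%, and changed no other count among the 100. Apart from the cultivars at 29 °C, same-numbered libraries did not all deviate together (lowest correlations −0.16, −0.30 and −0.36), and 3, 1 and 1 of 6 libraries correlated best with their own number. An adjusted p below 0.01 left 0 for heat in BR-IRGA 409 and 0 at 29 °C, against 51 and 514 of all 22321 genes. No filter gave 2 at 29 °C, against 2.47% of all genes. The 50 highest genes held 2 calls for heat in BR-IRGA 409 and 1 for the cultivars at 38 °C, and the 200 highest 20 and 5. The shares of all genes were 11.9% and 6.53%. The cause of these shifts was not tested. Relative to TMM-scaled library sizes the difference in share was 1.10 points for heat in BR-IRGA 409 and 0.711 points for the cultivars at 38 °C (0.0154 and −0.233 in plain shares). The other alternatives run on the differences in share moved them by less than 1 SD between libraries.

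The called fold changes of the named genes kept their sign in all alternatives run on them. The calls in BR-IRGA 409 heat held in 17 of 24 alternatives for MH05g0022700 and MH01g0694500 and in 19 for MH01g0113200 and MH02g0642400. At 38 °C, those of MH01g0113200 and MH02g0642400 between cultivars held in 23, and that of MH12g0174100 at 29 °C in 17. With 3 libraries a group and a spread of 30.1% (median CV) in IRGA 428 control libraries, the spread between libraries was far above the counting error (median CV of 0.388% to 0.928% by group).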

Other observations

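The 100 genes were spread over the 12 chromosome numbers that can be read from the digits after MH in the IDs, a reading the files do not state. Chromosome 1 held 18 of them (14.2% of all tested genes lie there by the same reading), chromosomes 2 and 3 held 13 each (11.8% and 13.1%), chromosome 7 held 10 (7.70%), chromosome 11 held 8 (5.84%), chromosome 12 held 4 (5.42%), and chromosomes 9 and 10 held 3 each (5.26% and 5.43%). In 0 cases did 2 of the 100 genes follow each other in the list of IDs, and 3 pairs lay within 5 lines of each other. The differences between these shares were not tested.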
